A study of Mus musculus with 9 samples.

Results

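Inducible heat shock chaperones were read in 9 arrays of regulatory T (Treg) cells from mice. The genes considered were Hspa1a, Hspa1b, Dnajb1, Dnaja1, Hspa8, Hspd1, Hspe1, Hsph1 and Hsp90aa1, together with the stress-induced transcription factor gene Atf3. A probe set was taken where its annotated symbol was exactly 1 of these 10 names, which gave 12 probe sets for 9 genes out of 22180 genes measured. The probe set of Dnaja1 also names a microRNA gene, so no value is given for Dnaja1. The genes were chosen by their measured levels in these arrays, with Hspa1a and Hspa1b known to be low in some and high in others, so the levels across arrays and the correlations among these genes are described without a test.

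The study had 4 samples of Mst1/Mst2-KO Treg cells (Foxp3YFP-Cre with Stk4 f/f and Stk3 f/f), and 5 control samples of WT Treg cells (Foxp3YFP-Cre alone), all of strain C57BL/6. Stk4 and Stk3 encode the Hippo kinases Mst1 and Mst2, and Cre was expressed from the Foxp3 locus in both groups. Every sample was sorted as CD45.2+ CD4+ YFP+ cells from Rag1-deficient chimeras that had received marrow of 1 of these genotypes and WT CD45.1 marrow in equal parts, with no treatment of the cells given in the labels beyond sorting and lysis. Values are log2 RMA values, 1 array per sample. The 8 Treg and T cell markers examined were Foxp3, Il2ra, Ctla4, Ikzf2, Tnfrsf18, Cd4, Cd3e and Cd3d. Their mean lay between 9.66 and 9.81 in Mst1/Mst2-KO arrays and was 9.94 or more in WT arrays, without overlap, where the median of all probe set values was 4.04. Singly, Ikzf2 (8.90 to 9.73 against 9.85 to 10.23), Cd3e and Cd3d were lower in Mst1/Mst2-KO arrays without overlap, where 6.16% of all genes did not overlap. Foxp3 (10.59 to 10.79 in Mst1/Mst2-KO and 10.66 to 10.77 in WT arrays), Il2ra, Ctla4, Tnfrsf18 and Cd4 overlapped. The labels do not say whether each sample had its own chimera, and a p-value here refers to the spread among samples, which may be technical. In bulk RNA a lower level can reflect fewer cells that carry a transcript or less of it per cell, and these cannot be told apart.

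Heat shock proteins are chaperones that hold, fold or dissolve unfolded proteins. HSP70 proteins bind exposed hydrophobic stretches in cycles of ATP hydrolysis. Those cycles are started by HSP40 (J domain) partners and reset by nucleotide exchange factors such as HSP110. Under heat or other protein-damaging stress the transcription factor HSF1 forms trimers, binds heat shock elements built from inverted GAA units, and raises transcription of the inducible genes from a low basal level within minutes. Treg cells, like other cells, also carry constitutive relatives of these chaperones in the absence of stress.

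The upstream sequences are shown because the genes considered include classical HSF1 targets. RefSeq start sites (GRCm38.p6) were on hand for 8 of the 10 genes, Hspa8 and Hsp90aa1 being the others. Sequences are 250 bases up to the start site, 5′ to 3′ on the gene's strand, and capitals mark each GAANNTTC or TTCNNGAA, the pairs of inverted units of a heat shock element (each reads the same on both strands). The Hspa1a window lies at chr17:34972157-34972406 and the Hspa1b window at chr17:34959239-34959488, both on the minus strand, and the Hsph1 window at chr5:149636337-149636586 on the minus strand.
Hspa1a: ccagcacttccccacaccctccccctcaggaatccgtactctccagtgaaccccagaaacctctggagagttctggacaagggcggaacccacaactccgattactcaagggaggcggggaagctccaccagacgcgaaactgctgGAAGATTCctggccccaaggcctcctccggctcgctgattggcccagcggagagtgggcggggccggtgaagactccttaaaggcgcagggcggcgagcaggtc
Hspa1b: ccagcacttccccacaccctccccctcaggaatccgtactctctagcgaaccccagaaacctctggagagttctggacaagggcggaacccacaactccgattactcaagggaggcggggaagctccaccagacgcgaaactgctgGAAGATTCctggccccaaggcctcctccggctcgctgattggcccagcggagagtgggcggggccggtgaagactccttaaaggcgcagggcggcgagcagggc
Hsph1: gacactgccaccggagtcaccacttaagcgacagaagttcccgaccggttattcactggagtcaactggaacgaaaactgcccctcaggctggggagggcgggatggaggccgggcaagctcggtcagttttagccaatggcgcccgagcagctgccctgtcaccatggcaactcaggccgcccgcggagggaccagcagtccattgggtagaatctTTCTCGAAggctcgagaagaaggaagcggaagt
Hspa1a and Hspa1b differ at 3 of these 250 positions and share a GAANNTTC that starts 104 bases upstream. Hspd1 and Hspe1, which encode the mitochondrial chaperonin and its lid, lie head to head and share an 18-base run at chr1:55088059-55088076, which is shown on each gene's strand with all units in capitals.
Hspd1: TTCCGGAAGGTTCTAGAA
Hspe1: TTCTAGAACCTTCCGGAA
In this run a GAANNTTC overlaps a TTCNNGAA on either side, which makes 2 overlapping elements of 3 inverted units. At least 1 window of 6 of the 8 genes (Hspa1a, Hspa1b, Dnaja1, Hspd1, Hspe1 and Hsph1) holds a pair of units, and neither window of Dnajb1 nor that of Atf3 does. Counted by window, as a gene can have several start sites, 7 of the 13 windows of these 8 genes hold a pair of units, and windows of 1 gene overlap for Hsph1 and Dnaja1. Of all 32851 windows of this length in the RefSeq table, 6.69% hold a GAANNTTC, 7.17% a TTCNNGAA, 12.8% either of them and 0.466% an element of 3 units. A match is a description of the letters and not a measured binding site. HSF1 activity was not measured, and whether elements go with likeness across arrays was not tested.

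Hspa1a and Hspa1b encode the stress-inducible HSP70 proteins. Hspa1a had values of 3.18, 9.86, 9.69 and 8.11 in Mst1/Mst2-KO arrays 1 to 4 and of 5.18, 2.80, 9.14, 9.88 and 9.93 in WT arrays 1 to 5. Hspa1b had values of 4.21, 10.40, 10.13 and 9.01 in Mst1/Mst2-KO arrays 1 to 4 and of 6.70, 3.32, 9.77, 9.90 and 10.48 in WT arrays 1 to 5. Both genes were low in Mst1/Mst2-KO array 1 and WT array 2, in between in WT array 1, and high in the other 6 arrays, so low and high arrays occurred in both genotypes and the genotypes overlapped. The gap between the lowest and the highest array was 7.13 log2 units for Hspa1a and 7.16 for Hspa1b. The lowest values were under 4.04 for Hspa1a and Hspa1b in 1 array or more, and detection above background was not judged, so no fold is given for these gaps. The SD within genotypes was 3.18 for Hspa1a and 2.96 for Hspa1b, ranks 2 and 3 among the 22180 genes. Because the genes are near-identical copies, their probe sets may read each other's transcripts, and which of them varied cannot be told apart. Their correlation over the 9 arrays (Pearson r = 0.99, Spearman rho = 0.95) is therefore not that of independent genes.

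**Figure D1:**
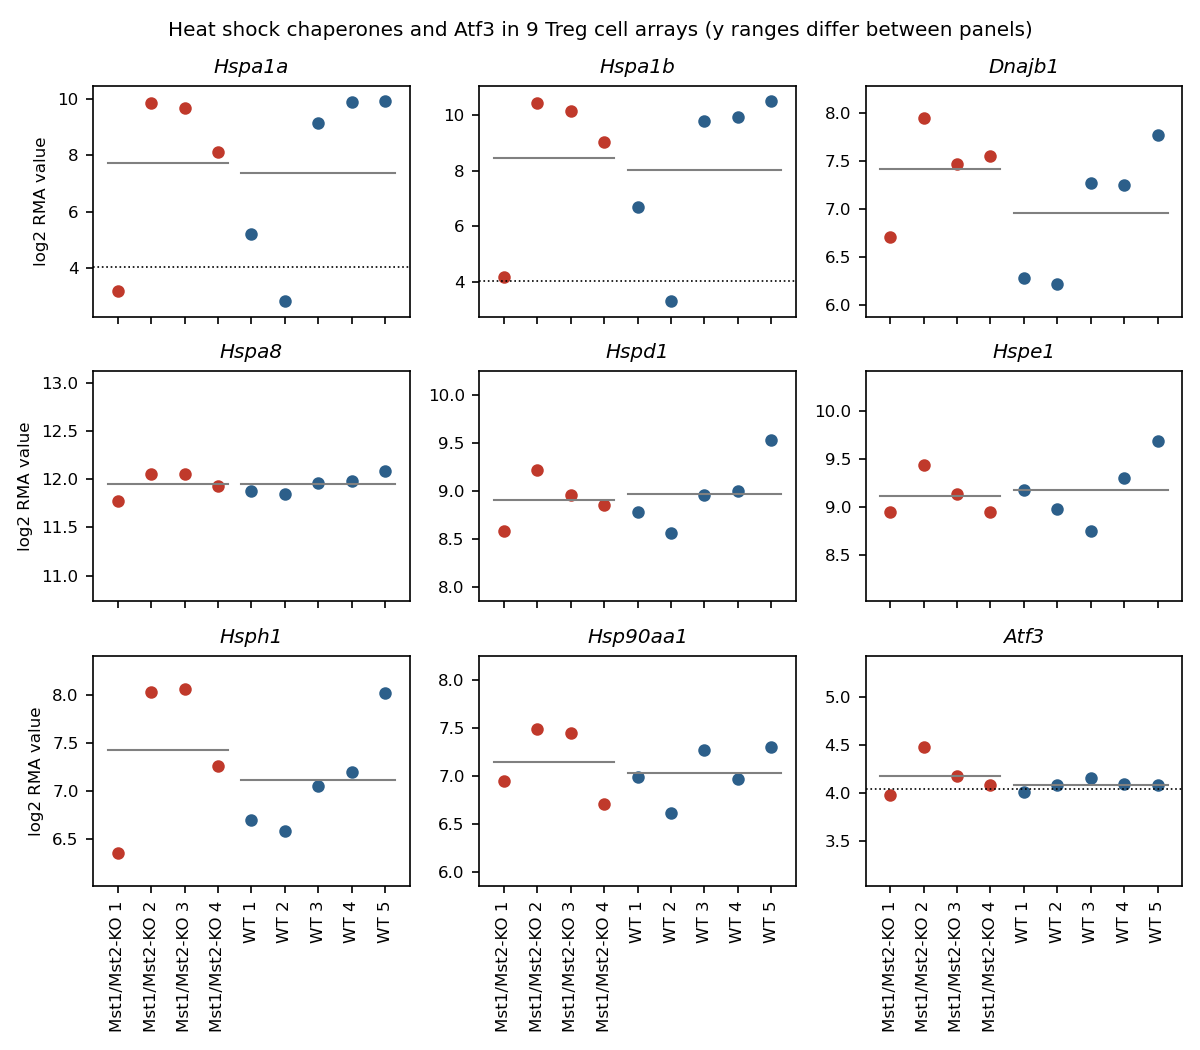
Log2 RMA values of the 9 measured genes (y axis, range differing between panels) in each array (x axis: 4 Mst1/Mst2-KO in red, then 5 WT in blue). Grey lines are group means and the dotted line is the median of all probe set values (4.04), and Hspa1a and Hspa1b are lowest in Mst1/Mst2-KO array 1 and WT arrays 1 and 2.

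The HSP40 gene Dnajb1, whose protein stimulates the HSP70 ATPase, had the widest range after the HSP70 genes. Dnajb1 had values of 6.70, 7.94, 7.47 and 7.55 in Mst1/Mst2-KO arrays 1 to 4 and of 6.28, 6.21, 7.26, 7.25 and 7.77 in WT arrays 1 to 5. The 3 arrays lowest in Hspa1a and Hspa1b were also its 3 lowest. Hsph1, which encodes the HSP110 exchange factor of HSP70, had values of 6.36, 8.04, 8.07 and 7.26 in Mst1/Mst2-KO arrays 1 to 4 and of 6.70, 6.58, 7.06, 7.20 and 8.02 in WT arrays 1 to 5. The same 3 arrays were lowest, and the 3 arrays around 8 were Mst1/Mst2-KO arrays 2 and 3 and WT array 5. The highest and lowest arrays differed by 1.72 log2 units for Dnajb1 and by 1.71 for Hsph1. Within genotypes, Dnajb1 changed by 0.19 log2 units and Hsph1 by 0.19 for each log2 unit of the mean of Hspa1a and Hspa1b.

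Hspa8 encodes the constitutive HSP70 of the cytosol, and 4 probe sets carried its symbol. The brightest (17548744) had values of 11.77, 12.06, 12.06 and 11.93 in Mst1/Mst2-KO arrays 1 to 4 and of 11.88, 11.85, 11.96, 11.99 and 12.09 in WT arrays 1 to 5. It again had the same 3 lowest arrays, but over a gap of 0.32 log2 units. The other probe sets of Hspa8 had gaps of 0.28, 0.56 and 1.53 log2 units, the largest for probe set 17434475. That probe set had 9.03, 10.08, 9.81 and 9.56 in Mst1/Mst2-KO arrays 1 to 4 and 10.04, 10.04, 10.31, 10.33 and 10.56 in WT arrays 1 to 5. It thus differed from the others in which arrays were low. The 4 probe sets correlated with the mean of Hspa1a and Hspa1b, genotype means subtracted, with r between 0.86 and 0.91. Without that subtraction r was 0.54 for probe set 17434475 and between 0.89 and 0.91 for the others. Probe sets 17548379 and 17548744 had the same values in Mst1/Mst2-KO arrays 2 and 3 and WT array 1, so the 4 may not be separate readings. Hspa8 has many processed copies in the genome, and which of them each probe set reads was not analysed here.

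The mitochondrial chaperonin genes spanned just under a log2 unit. Hspd1 (HSP60) had values of 8.58, 9.22, 8.96 and 8.86 in Mst1/Mst2-KO arrays 1 to 4 and of 8.79, 8.57, 8.96, 9.00 and 9.54 in WT arrays 1 to 5. Its 3 lowest arrays were again those low in Hspa1a and Hspa1b, and its gap was 0.97 log2 units. Hspe1 (HSP10), which lies head to head with it, had values of 8.95, 9.44, 9.14 and 8.95 in Mst1/Mst2-KO arrays 1 to 4 and of 9.18, 8.98, 8.75, 9.30 and 9.69 in WT arrays 1 to 5. Hspe1 was lowest in WT array 3, an array high in the HSP70 genes, and shared its highest array, WT array 5, with Hspd1. Over the 9 arrays Hspe1 correlated with Hspd1 with r = 0.79 (rho = 0.63), with Hspa1a with r = 0.46 (rho = 0.68) and with Hspa1b with r = 0.45 (rho = 0.67), so the order of these correlations differed between r and rho.

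Hsp90aa1, the inducible cytosolic HSP90 gene, had values of 6.95, 7.49, 7.45 and 6.71 in Mst1/Mst2-KO arrays 1 to 4 and of 6.99, 6.62, 7.27, 6.97 and 7.30 in WT arrays 1 to 5. Its lowest arrays were Mst1/Mst2-KO array 4 and WT array 2, the first of which was high in Hspa1a and Hspa1b. Atf3 had values of 3.99, 4.48, 4.18 and 4.09 in Mst1/Mst2-KO arrays 1 to 4 and of 4.01, 4.08, 4.16, 4.10 and 4.09 in WT arrays 1 to 5. The lowest and highest Atf3 arrays differed by 0.49 log2 units and lay close to the median of all values (4.04), so its order of arrays rests on dim signal.

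Across the 9 genes, 7 had the same 3 lowest arrays (Hspa1a, Hspa1b, Dnajb1, Hspa8, Hspd1, Hsph1 and Atf3), while Hspe1 and Hsp90aa1 did not. Of all 22180 genes, 1.47% had these as their 3 lowest arrays. The 3 arrays were set by the mean of Hspa1a and Hspa1b, so Hspa1a and Hspa1b match almost by construction. The match of Atf3 rests on dim signal. The count also follows from how the genes were chosen and is not a test. At the other end, Mst1/Mst2-KO array 2 was the highest for 3 genes, Mst1/Mst2-KO array 3 for 1 and WT array 5 for 5. The extremes of the chaperone genes were thus found in both genotypes.

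Correlations among the 9 genes are given as a description, since the points share arrays that differ together and the arrays fall into low and high ones. Over the 9 arrays the 36 pairs had r from 0.31 (Hspe1 with Atf3) to 0.99 (Hspa1a with Hspa1b), with a mean of 0.71, and all 36 were above 0. Within the 4 Mst1/Mst2-KO arrays the mean was 0.83 with all 36 pairs above 0, and within the 5 WT arrays it was 0.68 with 35 above 0, the exception being Hspe1 with Atf3 (r = -0.38). With 4 and 5 points these values are imprecise, and the difference between the genotypes was not tested. Without the 2 arrays farthest from the median of the HSP70 genes (Mst1/Mst2-KO array 1 and WT array 2), the mean over 7 arrays was 0.63. Within the 6 arrays high in the HSP70 genes it was 0.62, again with all 36 pairs above 0 by r. By rho, Atf3 was below 0 in these arrays with Hspa1a (-0.20), Hspe1 (-0.14) and Hspd1 (-0.086), and the other pairs were above 0. 

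**Figure D2:**
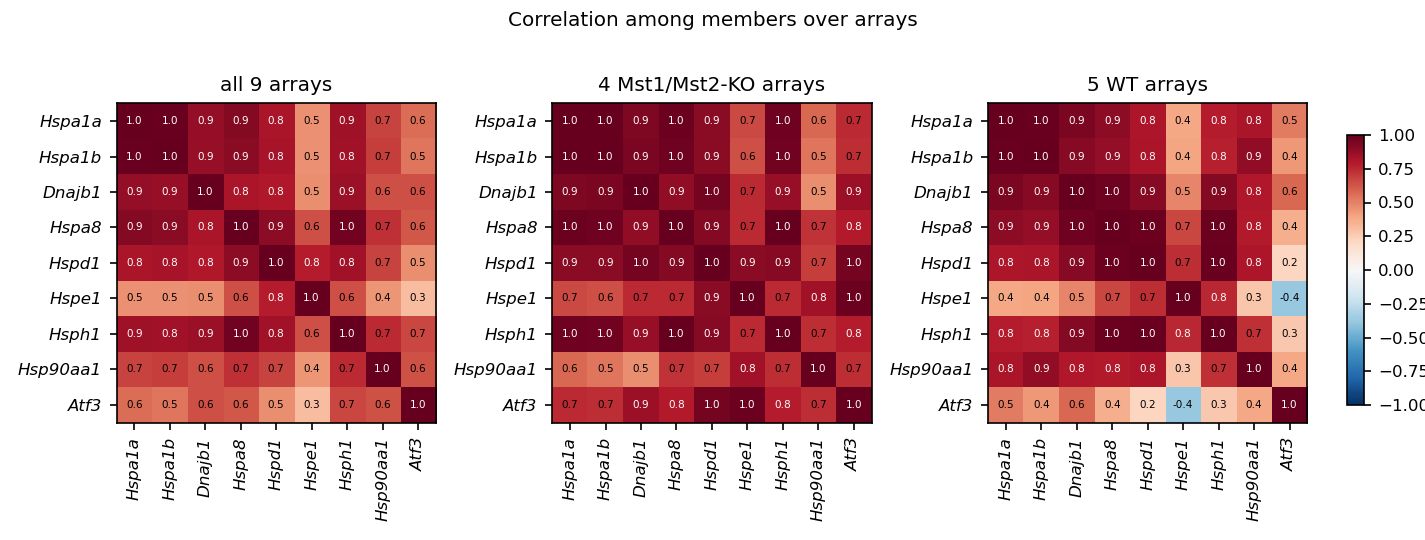
Pearson r for each pair of genes over all 9 arrays, the 4 Mst1/Mst2-KO arrays and the 5 WT arrays (colour from -1 to 1, r printed in each cell). Hspe1 and Atf3 have the weakest correlations with the other genes over all 9 arrays.

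Against the mean of Hspa1a and Hspa1b over 9 arrays, Hspa8 had r = 0.91 (rho = 0.97), Dnajb1 0.88 (rho = 0.85), Hsph1 0.85 (rho = 0.87) and Hspd1 0.82 (rho = 0.95). Hsp90aa1 had r = 0.69 (rho = 0.83), Atf3 0.55 (rho = 0.68) and Hspe1 0.46 (rho = 0.67). By r, constitutive Hspa8 and the HSP70 partners Dnajb1 and Hsph1 stood at the upper end of this order. By rho, Hspa8 and Hspd1 did. Without the 2 arrays farthest from the median, r over 7 arrays was 0.88 for Dnajb1, 0.86 for Hspa8, 0.76 for Hsph1, 0.64 for Hspd1, 0.53 for Hsp90aa1, 0.52 for Atf3 and 0.30 for Hspe1. Within the 6 high arrays, which were kept by their Hspa1a and Hspa1b levels and so span a narrower range, r was 0.87 for Hspa8, 0.79 for Hsp90aa1, 0.72 for Hspe1, 0.69 for Hspd1, 0.64 for Hsph1, 0.38 for Atf3 and 0.32 for Dnajb1 (rho = 0.54). With genotype means subtracted, an r at least as high as that of Dnajb1 (0.92) was found in 0.0705% of the 11350 genes whose mean lay above the median of all probe sets. The same share was 0.106% for Hspa8, 0.291% for Hsph1, 0.423% for Hspd1 and 3.52% for Hsp90aa1. It was 14.2% for Hspe1 (r = 0.47) and 8.85% for Atf3 (r = 0.56), whose correlations were thus common among genes. Each share counts the gene itself and Hspa1a and Hspa1b. The set was chosen by its levels in these arrays, so the shares are a description and not a test.

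**Figure D3:**
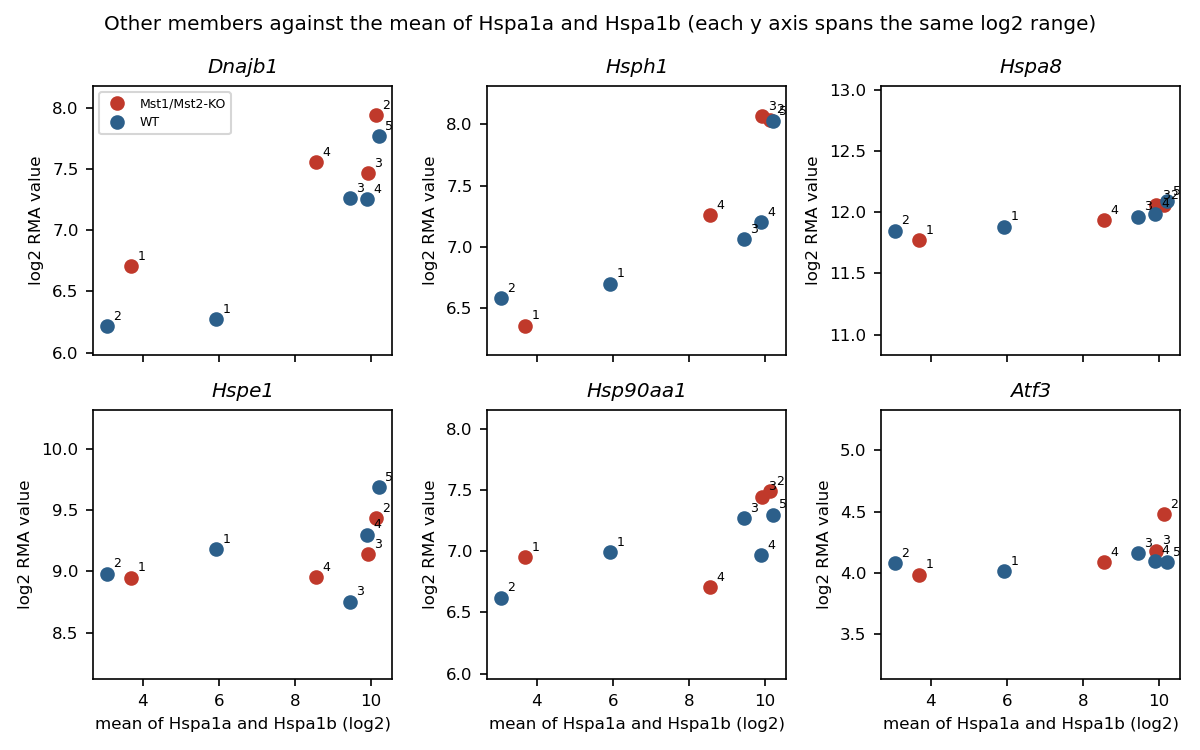
Log2 RMA values of 6 genes (y axes of equal span) against the mean of Hspa1a and Hspa1b in the same array (x axis), with Mst1/Mst2-KO arrays in red, WT arrays in blue and the replicate number beside each point. Dnajb1 and Hsph1 span 1.72 and 1.71 log2 units over the arrays, and Hspa8 and Atf3 change little on this scale.

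The genotypes were compared to ask whether loss of Mst1 and Mst2 changed the chaperone genes. None of the 9 genes passed limma's test at an adjusted p of 0.05 (0 called, 0 at an unadjusted p under 0.05), where 2.32% of all genes did (0.428% higher and 1.89% lower in Mst1/Mst2-KO arrays), and no gene had groups without overlap, as 6.16% of all genes had. Hspa1a averaged 7.71 ± 3.12 in Mst1/Mst2-KO arrays (SD, n = 4) and 7.39 ± 3.23 in WT arrays (SD, n = 5). The difference of 0.33 had a 95% interval from -3.58 to 4.23 (limma adjusted p = 0.957). For Hspa1b the difference was 0.40, with an interval from -3.23 to 4.04 (limma adjusted p = 0.942). Differences of several log2 units in either direction could not have been told from 0 for these genes, and the sign turned in the 6 high arrays alone (-0.43 for Hspa1a and -0.21 for Hspa1b).

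The remaining genes had narrower intervals. Dnajb1 averaged 7.42 ± 0.52 in Mst1/Mst2-KO arrays (SD, n = 4) and 6.95 ± 0.68 in WT arrays (SD, n = 5). Its difference of 0.46 (interval from -0.30 to 1.22) gave a limma adjusted p of 0.600 and was not called. Hsph1 differed by 0.32 (interval from -0.53 to 1.16), Hsp90aa1 by 0.12 (-0.29 to 0.53) and Atf3 by 0.095 (-0.11 to 0.30). Hspd1 differed by -0.067 (interval from -0.48 to 0.34) and Hspe1 by -0.061 (-0.45 to 0.33). For Hspa8 the brightest probe set differed by 0.0014 (interval from -0.18 to 0.18), which bounds any difference in that signal. Its probe set 17434475 differed by -0.64 when probe sets were fitted separately and did not pass (limma adjusted p = 0.139, where 2.11% of probe sets were called), while each of the other 3 lay between 0.0014 and 0.081. The median difference was 0.12 over the 9 genes and 0.0023 over all genes.

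**Figure D4:**
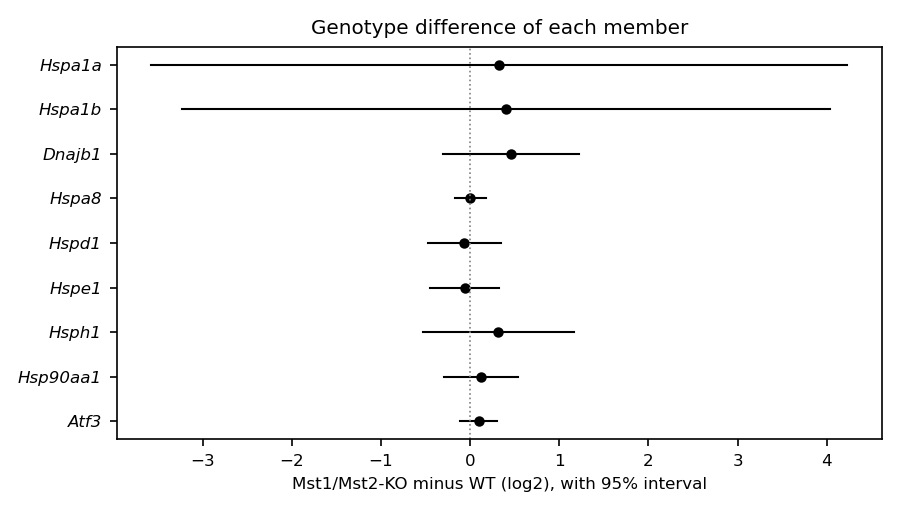
Difference between Mst1/Mst2-KO and WT arrays (x axis, log2) for each measured gene (y axis), with its 95% interval from limma. All intervals include 0, and those of Hspa1a and Hspa1b span several log2 units.

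Other genes of the stress pathways were read from lists of chaperones, cochaperones and stress response genes. Of 134 measured list genes outside the set, 117 had a mean above the median of all probe sets, and 12 of these (10.3%) had r of at least 0.7 with the mean of Hspa1a and Hspa1b (genotype means subtracted), against 3.20% of all genes above that median. By r without subtracting genotype means, 6 of the 117 (5.13%) did (Dnajb4, Stip1, Fkbp4, Cacybp, Zfand2a and Tcp1), against 1.55% of all genes above that median. The HSP90 family and its cochaperones held 4 of 14, with a median r of 0.51, where all genes had a median of 0.016. They were Unc45a, a chaperone of myosin that binds HSP90, Fkbp4, an immunophilin, Ptges3 (p23), which stabilises HSP90 on its clients, and Stip1 (HOP), which links HSP70 to HSP90.

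Fkbp4 had values of 7.25, 8.01, 7.87 and 7.63 in Mst1/Mst2-KO arrays 1 to 4 and of 7.46, 7.26, 7.44, 7.65 and 8.14 in WT arrays 1 to 5, low in the arrays with low HSP70 genes and in WT array 3. Stip1 had values of 7.41, 8.38, 8.07 and 7.82 in Mst1/Mst2-KO arrays 1 to 4 and of 7.65, 7.62, 7.63, 7.87 and 8.67 in WT arrays 1 to 5, and was highest in Mst1/Mst2-KO array 2 and WT array 5. Among small heat shock proteins and other HSF1 targets 4 of 11 reached r = 0.7 (Fkbp4, Zfand2a, Tcp1 and Cacybp), and among subunits of the cytosolic chaperonin TRiC 3 of 8 did (Tcp1, Cct7 and Cct4). Fkbp4 and Tcp1 belong to more than 1 list. Zfand2a, an arsenite-inducible regulator of the proteasome, had values of 5.65, 6.50, 6.45 and 6.27 in Mst1/Mst2-KO arrays 1 to 4 and of 5.73, 5.92, 6.04, 6.04 and 6.11 in WT arrays 1 to 5. Its lowest arrays were again Mst1/Mst2-KO array 1 and WT arrays 1 and 2.

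Chaperones of other compartments and genes of other stress responses were counted in the same way. None of 9 further HSP70 and HSP110 genes reached r = 0.7, and Hspa5, the HSP70 of the endoplasmic reticulum, had r = 0.29. Of 21 further HSP40 genes only Dnajb4 did (r = 0.76), with a median of 0.036 over that list. Of 10 exchange factors and cofactors of HSP70 only St13 (HIP), which stabilises the ADP-bound state, did (r = 0.79). Of 2 heat shock factor genes above the median neither did (Hsf2 with r = 0.27 and Hsf4 with r = 0.33), and Hsf1 had no probe set under its own symbol alone.

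Of the genes listed here as immediate early, many, but not all, are switched on within minutes by signalling or handling. The list reached r = 0.7 in 0 of 32 cases, with a median of 0.16 and a range from -0.83 (Btg1) to 0.66 (Jun). Fos had values of 6.99, 7.08, 7.46 and 7.27 in Mst1/Mst2-KO arrays 1 to 4 and of 6.89, 6.20, 7.63, 6.89 and 6.30 in WT arrays 1 to 5, with r = 0.43. Fos was lowest in WT arrays 2 and 5, of which the first was lowest and the second highest in Hspa1a, and highest in WT array 3. Integrated stress response genes reached it in 1 of 13 cases (Psat1, a serine synthesis enzyme, r = 0.72). The lists were compared by counts alone, and no difference between lists was tested.

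**Figure D5:**
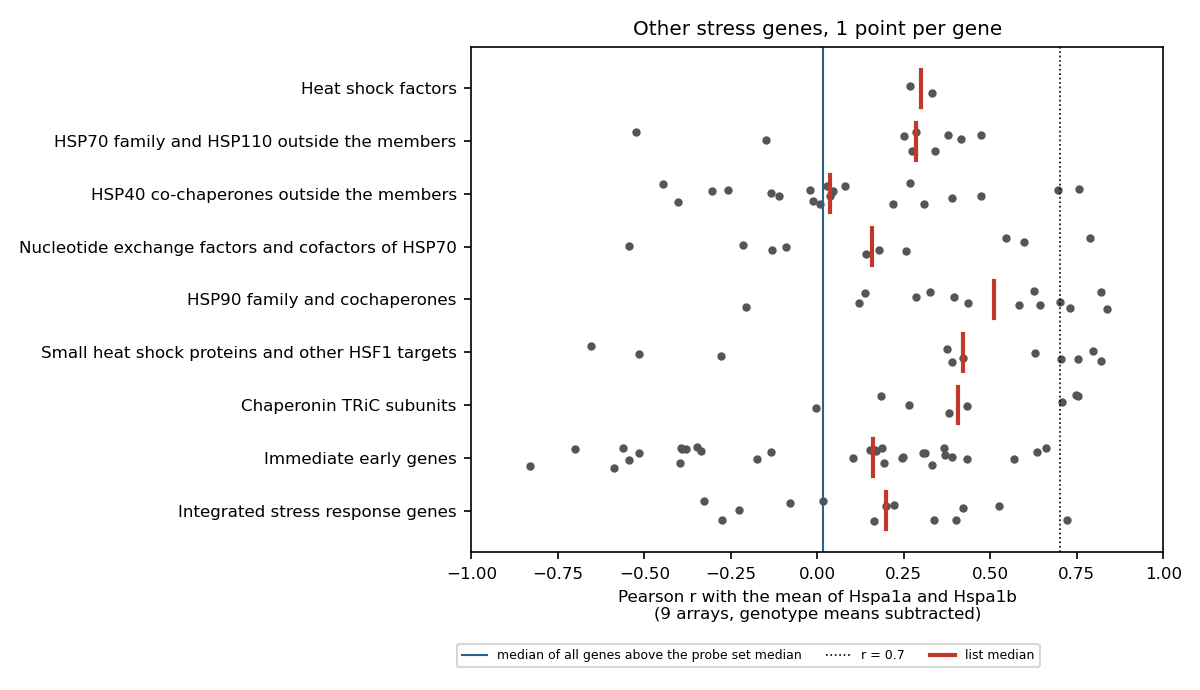
Pearson r of each list gene with the mean of Hspa1a and Hspa1b (x axis, 9 arrays, genotype means subtracted) for genes whose mean lies above the median of all probe sets, by list (y axis). Red bars are list medians, highest for the HSP90 family and cochaperones (0.51), the blue line is the median of all such genes (0.016) and the dotted line marks 0.7.

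Between genotypes, 1 of the 134 list genes passed limma's test, where 2.32% of all genes did. Bag1, an exchange factor of HSP70 that also binds BCL-2, had values of 8.89, 8.90, 8.79 and 8.91 in Mst1/Mst2-KO arrays 1 to 4 and of 9.19, 9.13, 9.11, 9.18 and 9.26 in WT arrays 1 to 5. The groups did not overlap, which held for 12 of the 134 list genes and for 6.16% of all genes. Bag1 fell by 0.30 log2 units in Mst1/Mst2-KO arrays (SE 0.0585, limma adjusted p = 0.0264). Its r with the HSP70 genes was 0.14, so it did not follow them across arrays. The difference lay between -0.32 and -0.26 over all alternatives and its adjusted p between 0.0161 and 0.245. The call was lost after quantile normalisation (limma adjusted p = 0.0553), with replicate numbers as a block (limma adjusted p = 0.177) and without the 3 arrays lowest in Hspa1a and Hspa1b (limma adjusted p = 0.245). It was also lost when Mst1/Mst2-KO array 1 or 3 or WT array 1, 2, 4 or 5 was left out, with limma adjusted p from 0.0542 to 0.0714.

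No other list gene passed, and 33 of the 134 had an unadjusted p under 0.05, against 14.9% of all genes. The smallest p among HSP70 relatives belonged to Hspa13, an HSP70 of microsomes (difference -0.42, limma adjusted p = 0.100), and to Hyou1, the HSP110 of the endoplasmic reticulum (-0.36, limma adjusted p = 0.140). Among HSP40 genes they belonged to Dnajc11 (-0.34) and Dnajb11 (-0.22), in the HSP90 list to Hsp90b1 (-0.25) and Unc45a (0.19), and among TRiC subunits to Cct4 (-0.37) and Cct7 (-0.16). In the HSF1 target list they belonged to Ier5 (-0.54) and Hmox1 (0.39), and among heat shock factors to Hsf4 (-0.096) and Hsf2 (0.021). Among immediate early genes they belonged to Klf2 (difference 0.46, limma adjusted p = 0.0589) and Ier5 (-0.54), and in the integrated stress response to Slc3a2 (-0.42, limma adjusted p = 0.0748) and Atf4 (0.26, limma adjusted p = 0.0779). Klf2, which encodes a transcription factor of T cell trafficking, passed after quantile normalisation (limma adjusted p = 0.0240), where it was the 1 list gene called, with the dim gene filter (limma adjusted p = 0.0357) and without WT array 3 (limma adjusted p = 0.0395). Slc3a2 passed with the dim gene filter (limma adjusted p = 0.0464) and without Mst1/Mst2-KO array 2 (limma adjusted p = 0.0444), and Hyou1 without Mst1/Mst2-KO array 2 (limma adjusted p = 0.0469). List medians ran from -0.13 (HSP40 genes) to 0.057 (immediate early genes), beside 0.0023 for all genes.

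Over all genes, the pattern of the HSP70 genes was matched against 1193 named genes above the median of all probe sets that ranged over at least 1 log2 unit. The 12 most alike, by r with genotype means subtracted over 9 arrays, were Mir143, Rnu12, Erf, Zfp53, Scarna17, Vmn1r127, Krtap5-2, Rybp, Morf4l2, Lman2l, Zbtb48 and Lin7b, with r from 0.92 down to 0.77. Erf, an ETS family repressor, had values of 6.42, 7.35, 7.08 and 6.75 in Mst1/Mst2-KO arrays 1 to 4 and of 6.72, 5.91, 6.72, 6.72 and 6.72 in WT arrays 1 to 5, lowest in Mst1/Mst2-KO array 1 and WT array 2. None of these 12 ranged over more than 1.51 log2 units, against 7.13 for Hspa1a. The 6 genes of most opposite pattern were Mettl21c, Shld2, Mir327, Mir103-2, Mir15a and Tmem154, with r from -0.89 to -0.83. Such lists hold the extremes of many comparisons over 9 arrays and show no more than likeness.

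Other properties of the arrays were set beside the HSP70 genes. Array medians lay between 4.01 and 4.07 in Mst1/Mst2-KO arrays and between 3.99 and 4.08 in WT arrays, and their r with the mean of Hspa1a and Hspa1b was 0.077 (genotype means subtracted). The 8 Treg and T cell markers had r = -0.062. Of the arrays low in the HSP70 genes, Mst1/Mst2-KO array 1 had a marker mean of 9.80, WT array 1 had 9.94, the lowest of the WT arrays, and WT array 2 had 9.98. The mean of 5 B cell markers lay between 4.79 and 5.59 in Mst1/Mst2-KO arrays and between 4.54 and 5.39 in WT arrays (r = -0.34), and that of 8 myeloid markers between 4.12 and 5.66 in Mst1/Mst2-KO arrays and between 3.99 and 4.86 in WT arrays (r = -0.25). Within WT, the arrays low in the HSP70 genes had the highest myeloid marker means (4.76 in WT array 1 and 4.86 in WT array 2, against 3.99 to 4.25 in the others), and WT array 1 was also the highest in B cell markers (5.39). Singly, S100a8 (6.02 and 6.89 against 3.96 to 4.58), S100a9, Lyz2 and Fcer1g were highest in WT arrays 1 and 2. Csf1r and Itgam were highest in WT array 3 and Itgax in WT array 5, and Cd14 was 2.99 in WT arrays 1, 2 and 4. Mst1/Mst2-KO array 1, low in the HSP70 genes, had 4.13 for myeloid markers and 5.11 for B cell markers, while Mst1/Mst2-KO array 4 was the highest in both. Of the markers of other cells, Ebf1, Cd14, Itgam, Itgax, Ncr1, Klrb1c, Eomes and Klf1 averaged below the median of all probe sets. The mean of Cd8a and Cd8b1 had r = 0.50, and was highest in Mst1/Mst2-KO array 2 (6.19). The part of other cells in the chaperone levels was not tested.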

How the data were processed

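The deposited values are log2 expression values, 1 per probe set and array, which the authors made by RMA (per the submitters' processing notes, Expression Console 1.1 of Affymetrix). RMA corrects background, equalises array distributions and summarises probes. This compresses differences near background and removes shifts that affect a whole array. No scanner values were used, so detection could not be judged, and 9 arrays limit the precision. Gene symbols came from the platform annotation: 23521 of 41345 probe sets had 1 symbol, and for genes with several the brightest on average was kept (22180 genes).

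Genotypes were compared with limma 3.58.1 in R 4.3.3 (lmFit and eBayes, no filter, Benjamini-Hochberg over all genes, threshold 0.05), which was tested on simulated data. Correlations were computed with scipy 1.17.1, numpy 2.4.6 and pandas 2.3.3 under Python 3.11.15, and plots drawn with matplotlib 3.10.9. The genes and lists were chosen with earlier results of these data known, so no list was tested and no p was adjusted over a list alone. List genes were named by smallest p (up to 4 that passed, otherwise 2), and genes most alike by the 12 highest and 6 lowest r, without predicted genes, receptor segments, Xist, Y-linked genes or the chaperone set. Counts of r use 0.7, and genes named for reaching it, and Fos, Jun, Btg1 and Hspa5, were chosen after their values were seen. Alternatives were a replicate block, a dim gene filter, probe set averages or separate probe sets (the last added after seeing the data), quantile normalisation, median centring, other variance and weight settings, and leaving out arrays.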

Additional observations from a re-analysis of the deposited data

Results flagged for a closer look

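Of 58 sets of values examined (12 probe sets and 17 array-level means, each in both genotypes), 4 had a sample far from the others of its group by Dixon's ratio, where chance flags about 1 in 20. None of them was a chaperone probe set of the set described. The mean of the 3 heat shock factor genes was 4.48 in Mst1/Mst2-KO array 3, against 4.23 to 4.25 in the other Mst1/Mst2-KO arrays. The mean of the 8 Treg and T cell markers was 9.66 in Mst1/Mst2-KO array 4, against 9.78 to 9.81. The mean of Cd8a and Cd8b1 was 6.19 in Mst1/Mst2-KO array 2, against 5.63 to 5.72. The 1 measured erythroid marker, Klf1, was 2.87 in WT array 1, against 3.23 to 3.34 in the other WT arrays, all below the median of all probe sets.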

How the results depend on the processing

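None of the 9 chaperone-set genes was called under any of the alternatives. Over all genes 515 passed, against 178 with a replicate block (which uses no information from WT array 5). Without the 3 arrays lowest in Hspa1a and Hspa1b, which were picked by their own values, 37 passed. That setting keeps 6 arrays, so an effect of those 3 arrays cannot be told apart from that of fewer samples. When 1 array was left out, between 271 and 594 passed. The number was 280 without Mst1/Mst2-KO array 1, and 327, 282, 322, 271 and 314 without WT arrays 1 to 5. List genes past the test numbered 1, against 0 with the block, 3 with the dim gene filter, 0 without those 3 arrays and 0 to 5 with 1 array left out (5 without Mst1/Mst2-KO array 2, 2 without Mst1/Mst2-KO array 4 or WT array 3, and 0 without any other single array). When each probe set was fitted on its own, 497 were called and none belonged to the 9 genes. Signs turned for Hspa1a with array weights (-0.21) or without the 3 arrays (-0.43), for Hspa1b likewise (-0.053 and -0.21), for Hspa8 with probe set averages (-0.13), quantile normalisation (-0.0070) or array weights (-0.014), and with the block for Hspd1 (0.074) and Hspe1 (0.066). With 1 array left out, the difference ran from -0.82 to 1.84 for Hspa1a, -0.78 to 1.81 for Hspa1b, -0.033 to 0.062 for Hspa8, -0.17 to 0.074 for Hspd1, -0.17 to 0.066 for Hspe1, -0.0032 to 0.16 for Atf3 and -0.059 to 0.095 for Hsf2. The differences of Dnajb1, Hsph1 and Hsp90aa1 were positive under each of these settings. The mean r over the 36 pairs was 0.71, against 0.65 to 0.69 under other scalings and probe set averages and 0.67 to 0.75 with 1 array left out. Deviations of same-numbered arrays from their group means correlated with r = 0.074, -0.17, 0.022 and 0.067. Such values over many genes cannot exclude a pairing that touches some of them. The labels do not say whether equal replicate numbers mark a pair. The cause of each turn was not tested.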
